A study of Homo sapiens with 24 samples.

Results

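Promoters at which BRG1, BRM and SNF5 peaks met in RWPE1 cells carrying SCHLAP1 are described here. A promoter belonged to them when a BRG1 peak that the authors' annotation calls a promoter was under 3000 bp wide and overlapped, by at least 1 bp, both a BRM peak and an SNF5 peak. The members were thus chosen by the measured overlap and width of the peaks. There were 3619 such shared promoters, 19.3% of the 18754 BRG1 promoter peaks under 3000 bp, in a list of 51504 BRG1 peaks. The BRM and SNF5 lists held 22157 and 6489 peaks. Most shared promoters were high in CpG, lay over the start of a protein-coding gene and carried 1 short SNF5 peak. Where a start could be placed, 59.3% of SNF5 middles lay downstream of it, and 33.9% within the first 200 bp downstream.

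RWPE1 is an established cell line from benign human prostate epithelium. Lentivirus brought in either SCHLAP1, a long noncoding RNA known from prostate tumours, or the control gene LACZ, and 2.5 ug/mL blasticidin was applied for 1 week or more. Of the 24 samples, 2 belong to each of 12 groups. BRG1, BRM and SNF5 were precipitated from SCHLAP1 cells after cutting chromatin with MNase, an enzyme that digests the DNA between nucleosomes, with input cut the same way, while H3K27ac, H3K4me1, H3K4me3 and sonicated inputs came from SCHLAP1 and LACZ cells. The labels do not say whether the cells were 1 clone or whether replicates were separate cultures. The subunits were not profiled in LACZ cells, and every value below describes SCHLAP1 cells and none measures an effect of SCHLAP1. The histone marks were not analysed here. There was 1 list of positions for each subunit, without read counts. Depth is therefore unknown, replicates cannot be compared, and absence from a list means only that no peak was called there.

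SWI/SNF complexes use the energy of ATP to slide or evict nucleosomes and so open DNA to transcription factors. BRG1 (SMARCA4) and BRM (SMARCA2) are the alternative ATPases, of which a complex holds 1, and SNF5 (SMARCB1) is a core subunit that contacts the nucleosome in the BAF and PBAF forms. At active promoters the start of transcription commonly lies in a stretch kept free of nucleosomes, with a well-placed nucleosome just downstream.

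The promoter sequences below come from RefSeq (GRCh38.p14) and run from 250 bases before to 50 bases after a start site, 5′ to 3′ on the strand of the gene. They hold motifs whose share differed between shared promoters and other promoters, or that differed in how often SNF5 lay on them. For NRF1 the interval was apart only from that of all RefSeq promoters of protein-coding genes. The YY1 and E-box letters, given further below, also differed from all these promoters and are not shown as sequences. Each sequence belongs to the shared promoter with the widest SNF5 peak among those that hold the motif and have the SNF5 middle in the window. The capitals mark the motif on either strand. A match is a description of letters, not a binding site or a cause. The ETS letters CCGGAAG stand in the promoter of DCPH1 (chr6:151452216-151452515, plus strand), which holds them once on each strand, 178 and 112 bases before the start.

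DCPH1: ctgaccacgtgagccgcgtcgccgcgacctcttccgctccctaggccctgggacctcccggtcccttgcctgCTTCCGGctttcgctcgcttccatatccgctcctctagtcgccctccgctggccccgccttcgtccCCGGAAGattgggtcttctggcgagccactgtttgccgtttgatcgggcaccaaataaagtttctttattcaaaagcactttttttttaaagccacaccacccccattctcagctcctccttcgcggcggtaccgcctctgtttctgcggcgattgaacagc

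The SP/KLF letters GGGGCGGG, a GC box, stand 95 bases before the start of PLK2, which encodes a polo-like kinase (chr5:58460037-58460336, minus strand).

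PLK2: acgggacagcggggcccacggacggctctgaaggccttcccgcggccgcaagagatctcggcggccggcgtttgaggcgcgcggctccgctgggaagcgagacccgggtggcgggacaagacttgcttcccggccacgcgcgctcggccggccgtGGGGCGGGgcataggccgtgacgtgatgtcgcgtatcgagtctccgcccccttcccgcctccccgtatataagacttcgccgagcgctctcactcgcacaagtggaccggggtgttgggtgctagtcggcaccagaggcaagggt

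The NF-Y letters CCAAT stand 67 bases before the start of ADK, which encodes adenosine kinase (chr10:74176513-74176812, plus strand).

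ADK: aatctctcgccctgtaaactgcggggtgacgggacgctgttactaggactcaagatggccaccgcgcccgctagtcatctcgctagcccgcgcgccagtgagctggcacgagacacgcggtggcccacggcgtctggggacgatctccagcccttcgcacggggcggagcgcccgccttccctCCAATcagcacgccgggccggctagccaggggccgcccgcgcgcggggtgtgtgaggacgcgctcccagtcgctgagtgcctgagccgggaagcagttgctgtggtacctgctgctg

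The NRF1 letters GCGCATGC stand 109 bases before the start of HNRNPH1, which encodes an RNA-binding protein of splicing (chr5:179623622-179623921, minus strand).

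HNRNPH1: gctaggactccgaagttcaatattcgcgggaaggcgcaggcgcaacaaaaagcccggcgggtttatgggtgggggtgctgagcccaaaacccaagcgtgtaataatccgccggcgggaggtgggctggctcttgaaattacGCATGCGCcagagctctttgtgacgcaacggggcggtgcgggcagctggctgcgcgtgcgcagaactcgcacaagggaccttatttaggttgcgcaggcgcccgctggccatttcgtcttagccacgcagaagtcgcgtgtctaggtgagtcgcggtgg

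The AP-1 letters TGANTCA, where N is any base, stand 246 bases before the start of LPAR2, which encodes a receptor for lysophosphatidic acid (chr19:19628171-19628470, minus strand).

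LPAR2: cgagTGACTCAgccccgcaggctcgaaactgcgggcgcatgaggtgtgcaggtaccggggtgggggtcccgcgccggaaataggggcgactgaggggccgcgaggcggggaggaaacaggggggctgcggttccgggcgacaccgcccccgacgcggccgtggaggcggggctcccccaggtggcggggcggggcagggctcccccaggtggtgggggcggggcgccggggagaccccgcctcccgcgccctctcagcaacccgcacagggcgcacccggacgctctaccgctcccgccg

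The TATA letters TATAAA stand 81 bases before the start of TRUB2, which encodes an RNA pseudouridine synthase (chr9:128322398-128322697, minus strand).

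TRUB2: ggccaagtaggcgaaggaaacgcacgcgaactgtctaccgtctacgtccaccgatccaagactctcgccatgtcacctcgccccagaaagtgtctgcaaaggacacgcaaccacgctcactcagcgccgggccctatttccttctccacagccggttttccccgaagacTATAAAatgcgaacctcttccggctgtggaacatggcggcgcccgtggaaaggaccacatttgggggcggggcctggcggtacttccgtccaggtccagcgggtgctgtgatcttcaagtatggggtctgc

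SNF5 peaks covered much of these windows. The SNF5 peak was 932 bp wide at DCPH1, inside a BRG1 peak of 2135 bp, and its middle lay 51.5 bp upstream of the start. It was 1178 bp wide at PLK2 and 992 bp at ADK, with the middle 12.5 and 41.5 bp downstream of the start. At HNRNPH1 it was 653 bp wide, at LPAR2 444 bp and at TRUB2 764 bp. All of these are far wider than the usual SNF5 peak, since the widest was chosen for each motif.

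SNF5 marked a small stretch of the BRG1 peak at the typical shared promoter, while BRM covered most of that peak. These widths were among the values that chose the members, or moved with them, and are given without a test. The median BRG1 peak at shared promoters was 1524 bp wide (interquartile range 1115 to 2004, full range 331 to 2998). It was 1041 bp at the 7767 promoters with BRG1 and BRM but no SNF5, and 503 bp at the 7275 with BRG1 only. A further 93 promoters had BRG1 and SNF5 without BRM. The median BRM peak was 851 bp at shared promoters, against 583 bp at promoters of BRG1 and BRM without SNF5, and BRM covered a median 66.75% of the BRG1 peak, against 59.6%. The median SNF5 peak was 219 bp (range 151 to 1293) and SNF5 covered a median 18.8% of the BRG1 peak.

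One SNF5 peak was the rule. Of the shared promoters, 2912 (80.5%) met 1 SNF5 peak, 617 (17.0%) met 2, 80 met 3 and 10 met 4. BRM lay in 1 peak at 3046 of them, in 2 at 524, in 3 at 48 and in 4 at 1. Of the 4415 SNF5 peaks concerned, 97.7% also met a BRM peak directly, and 68 shared promoters (1.88%) had no SNF5 peak that did. The shared promoters held 68.0% of the SNF5 list and 19.03% of the BRM list.

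The 10 promoters with 4 SNF5 peaks were named for HNRNPF, HM13, PPIA, SURF4, GID8, ZBTB2, CNOT8, DMTF1, LINC01135 and RBM14. HNRNPF, which encodes an RNA-binding protein of splicing, had 2771 bp of BRG1 (chromosome 10, 43394912 to 43397682, hg38) with a single BRM peak of 1912 bp. Its SNF5 peaks summed to 1174 bp. PPIA, which encodes the prolyl isomerase cyclophilin A, had 2075 bp of BRG1 (chromosome 7, 44795907 to 44797981) and 1029 bp of SNF5. CNOT8, which encodes a deadenylase subunit, had 2079 bp of BRG1 and 755 bp of SNF5. At the other extreme a single SNF5 peak filled nearly the whole of a narrow BRG1 peak at VPS52, TMED1 and DCAKD, where it covered 97.5, 94.5 and 88.7%. VPS52 and TMED1 encode proteins of vesicle traffic. The narrowest BRG1 peak among the shared promoters, 331 bp, was found at AL360012.1, LINC01970, AC020916.1, RPS9 and HIST1H4E. YAP1, which encodes the coactivator at the end of the Hippo pathway, was named by 4 shared promoters, with BRG1 peaks of 2674, 665, 968 and 659 bp along chromosome 11 from 102109450 to 102227861. Only the peak of 2674 bp had a RefSeq start within 1000 bp of its middle. The others were promoters by the authors' annotation alone.

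The limit of 3000 bp cut through a continuous range of widths. The widest promoters inside it were S100A16 (2998 bp), MFN2 (2997 bp), DSTN and CNBD2 (2985 bp each) and STAT6 (2979 bp). Just outside it lay APAF1 (3002 bp), IER2 (3003 bp), LNX1-AS2 and OCLN (3004 bp each) and PTDSS1 (3006 bp), with 2, 4, 1, 4 and 1 SNF5 peaks. In all, 457 BRG1 promoter peaks were 3000 bp or wider, and 353 of these met both other lists.

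Sharing went with width throughout the range. Of BRG1 promoter peaks of 300 to 500 bp, 1.73% were shared, and of those of 500 to 1000 bp, 9.30%. The share was 27.1% at 1000 to 1500 bp, 42.3% at 1500 to 2000 bp, 55.2% at 2000 to 2500 bp and 61.6% at 2500 to 3000 bp. The share that met BRM was 20.8% in the narrowest of these bins and 99.4% in the widest, so nearly all of the widest peaks outside the shared group had BRM and lacked SNF5. A wider peak also offers more bases to overlap, and how much of the trend this accounts for was not tested.

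**Figure D1:**
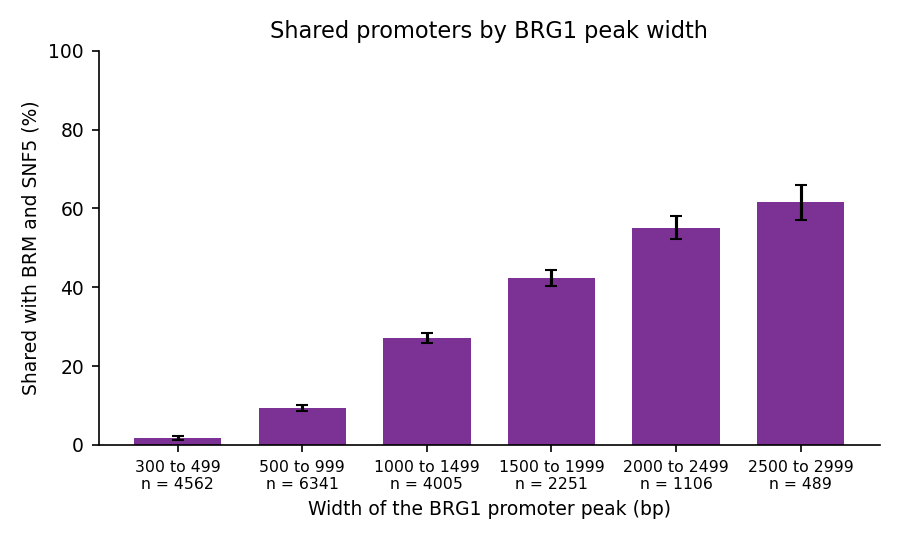
Share of BRG1 promoter peaks under 3000 bp that met both BRM and SNF5 (vertical axis, %), by width of the BRG1 peak (horizontal axis, bp). Bars are shares, error bars are 95% exact binomial intervals and n is the number of peaks. The share was 1.73% in the narrowest bin and 61.6% in the widest.

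The side of the start on which SNF5 lay was not used to choose the members. Its closeness to the start was, since SNF5 had to meet a BRG1 peak annotated as a promoter. The middle of that BRG1 peak itself lay a median 124.5 bp downstream of the start. A start site from RefSeq could be placed for 2553 shared promoters (70.5%), and these had 3144 SNF5 peaks with a middle to place. Starts were placed for 62.5% of promoters of BRG1 and BRM without SNF5 and for 42.0% of those of BRG1 only. Values below that need a start or its sequence window describe only these parts of the classes. The middle lay downstream of the start in 59.3% (1865; 95% exact binomial interval 57.6 to 61.0). The median offset was 58.25 bp downstream (95% interval 48 to 68), with an interquartile range from 173 bp upstream to 205 bp downstream. The stretch from 0 to 200 bp downstream held 1066 of the middles (33.9%), while the 200 bp upstream held 566. A further 15.4% lay from 500 to 200 bp upstream of the start and 15.7% from 200 to 500 bp downstream. Intervals treat peaks as independent trials, which neighbouring peaks are not strictly, and cover counting error only.

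SNF5 was densest where BRM was too, but over a much narrower stretch. SNF5 covered 51.6% of the 2553 shared promoters at its highest point, 90 bp downstream of the start, and 38.7% at the start itself. At 200 bp upstream it covered 27.2% and at 500 bp downstream 12.4%. BRM reached 91.1% at 130 bp downstream, and BRG1 94.6% at 50 bp downstream. At promoters with BRG1 and BRM but no SNF5, BRG1 reached 81.0% at 180 bp and BRM 74.9% at 100 bp downstream. All of the subunit profiles therefore had their highest point downstream of the start in both classes. The middle of the BRG1 peak lay downstream in 70.0% of shared promoters, in 69.0% of those with BRG1 and BRM without SNF5, and in 62.2% of those with BRG1 only.

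**Figure D2:**
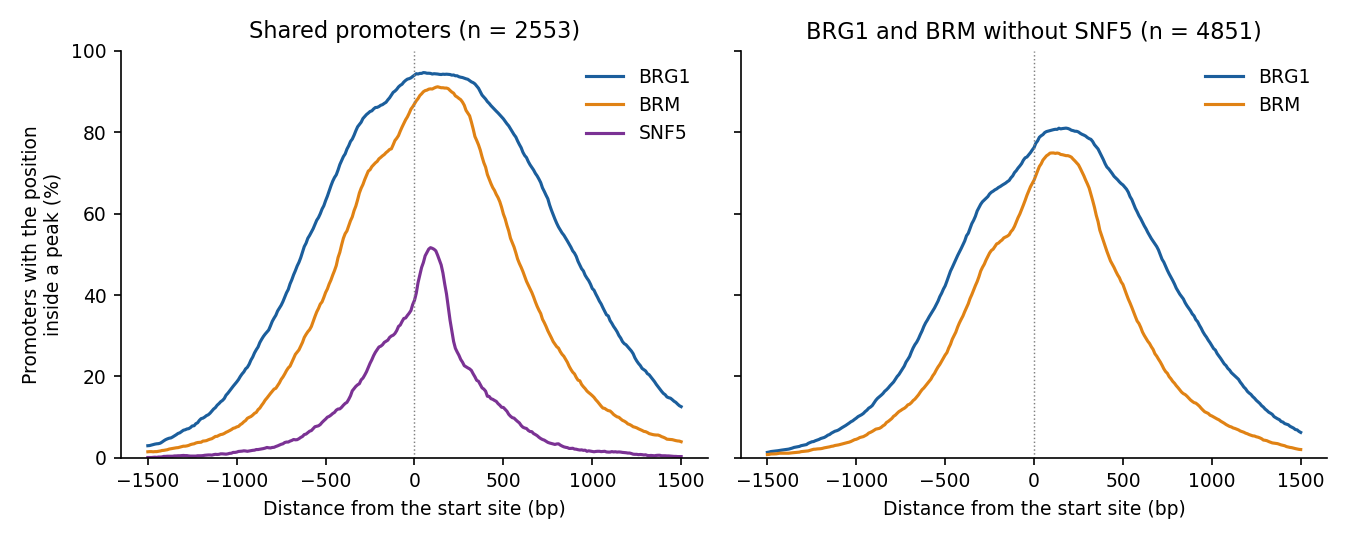
Share of promoters (vertical axis, %) in which each position around the start site (horizontal axis, bp, downstream to the right) lay inside a peak, at 2553 shared promoters (left) and 4851 promoters of BRG1 and BRM without SNF5 (right). SNF5 was highest, at 51.6%, 90 bp downstream of the start, with a shoulder upstream, while BRM and BRG1 formed broad plateaus.

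Where a shared promoter had exactly 2 SNF5 peaks, they often flanked the start. In 453 such promoters with a placed start, the middles were a median 454.5 bp apart (95% interval 431 to 475.5), and in 256 (56.5%) they lay on opposite sides of the start. Genes that share a promoter region with a divergent neighbour, a gene on the other strand that starts within 1000 bp upstream, showed a more even placement. The SNF5 middle was downstream in 54.7% (51.3 to 58.0) of SNF5 peaks at shared promoters with such a neighbour, and in 61.1% (59.0 to 63.1) at those without. The intervals did not overlap. The middle of the BRG1 peak differed in the same direction, lying downstream in 64.7% (61.1 to 68.3) with such a neighbour and in 72.0% (69.9 to 74.0) without.

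Divergent neighbours were also more frequent at shared promoters. They were present at 27.2% (25.5 to 29.0), against 21.3% (20.1 to 22.4) of promoters of BRG1 and BRM without SNF5 and 16.0% (14.7 to 17.4) of those of BRG1 only. The gene named by the peak was found in RefSeq for 3374 shared promoters (93.2%). Of these 3168 (93.9%) were protein-coding and 141 (4.18%) lncRNA genes, with 14 miRNA, 8 snoRNA, 5 snRNA and 3 vault RNA genes and the RNA gene of RNase P. Protein-coding genes made up 92.8% at promoters of BRG1 and BRM without SNF5 and 88.1% at those of BRG1 only. The protein-coding genes had a median length of 30343.5 bp (28829 to 32752), against 33573 bp (32173 to 35300) and 43729 bp (41611 to 45723). Divergent neighbours, gene class and gene length were not split by BRG1 width, and the part of width in these differences was not tested. Another BRG1 peak lay within 10 kb of 65.8% (64.3 to 67.4) of shared promoters, against 68.3% (67.3 to 69.4) with BRG1 and BRM, whose interval overlapped, and 69.3% (68.2 to 70.3) with BRG1 only.

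Shared promoters were CpG-rich. The RefSeq window had a median CpG observed over expected, the frequency of CG relative to its C and G content, of 0.875 (0.867 to 0.882), against 0.850 (0.845 to 0.856) with BRG1 and BRM and 0.785 (0.777 to 0.794) with BRG1 only. By width, the intervals of shared promoters and those with BRG1 and BRM were apart only in the bins from 1000 to 2500 bp. The medians were 0.858 against 0.856 at 500 to 1000 bp and 0.849 against 0.860 at 2500 to 3000 bp. A ratio of 0.6 or more, the level commonly used for CpG islands, was found in 94.2% (93.3 to 95.1), against 87.5% (86.6 to 88.5) and 72.5% (70.9 to 74.1), and in 62.2% of all RefSeq promoters of protein-coding genes. Over all widths, GC content had the same median of 67.0% at shared promoters and at those of BRG1 and BRM without SNF5, against 64.0% for BRG1 only. Among narrow BRG1 peaks it was lower at shared promoters. The medians were 64.3 (59.3 to 65.7) against 67.0% (66.0 to 68.7) at 300 to 500 bp. At 500 to 1000 bp they were 64.3 (63.7 to 65.7) against 67.0% (66.3 to 67.7). From 1000 to 3000 bp the intervals overlapped. The BRG1 peak covered the RefSeq start itself at 94.0% of shared promoters, against 76.2% and 42.3%, which moved with the width of the peak.

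ETS factors are a family that binds a GGAA core, common in promoters of housekeeping genes. The ETS letters were found in 23.2% of shared promoter windows, against 18.3% with BRG1 and BRM without SNF5, 12.4% with BRG1 only and 12.8% of all 22199 RefSeq promoters of protein-coding genes. The shared class was also the higher one in each width bin. The share was 32.0% at shared promoters of 300 to 500 bp against 16.7% at promoters of BRG1 and BRM without SNF5, 25.3 against 18.7% at 500 to 1000 bp and 26.0 against 19.4% at 1000 to 1500 bp. In the bins from 1500 to 3000 bp it was 24.0 against 18.4%, 18.2 against 15.8% and 14.7 against 12.1%. The intervals of the classes were apart at 500 to 1000 and 1000 to 1500 bp and overlapped in the other bins.

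Other motifs told the classes of promoter apart less, or the other way round. The GC box was in 41.8% (39.9 to 43.7) of shared promoters, against 44.0% (42.6 to 45.4), 37.3% and 29.5% in the other classes in the same order. The intervals of shared promoters and of those with BRG1 and BRM overlapped. NRF1, a factor of genes for mitochondria and growth, had its letters in 5.84%, against 5.07% with BRG1 and BRM, 4.19% with BRG1 only and 3.74% overall. Those of YY1 (AAGATGGCG) were in 3.80%, against 4.25, 2.81 and 2.41%. The letters of AP-1, the stress and growth factor of FOS and JUN, were rarer, in 3.53% (2.84 to 4.32), against 5.01 (4.41 to 5.66), 7.62 and 6.15%. The letters TATAAA were in 3.84% (3.13 to 4.66), against 4.47 (3.91 to 5.09), 7.72 and 9.47%. They were thus rarer than with BRG1 only and over all promoters, while the interval overlapped that of BRG1 and BRM. The TATA letters were sought on either strand over the whole window, so a match need not be a TATA box. The median match at shared promoters lay 81 bases before the start. CCAAT was in 36.3%, against 35.3, 37.6 and 34.7%. The letters of CRE (TGACGTCA) were in 2.82%, against 3.46, 3.01 and 2.26%, and those of the E-box (CACGTG) in 10.5%, against 9.79, 9.26 and 8.34%. Those of TEAD (GGAATG) were in 10.3%, against 9.79, 12.5 and 12.2%, and those of ZNF143 (ACTACAATT) in 0.548%, against 0.536, 0.589 and 0.378%. The letters CCGGAAG and GGAATG overlap in their core, and the TATA letters and the start were placed by RefSeq, so that an unused start can carry the match.

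**Figure D3:**
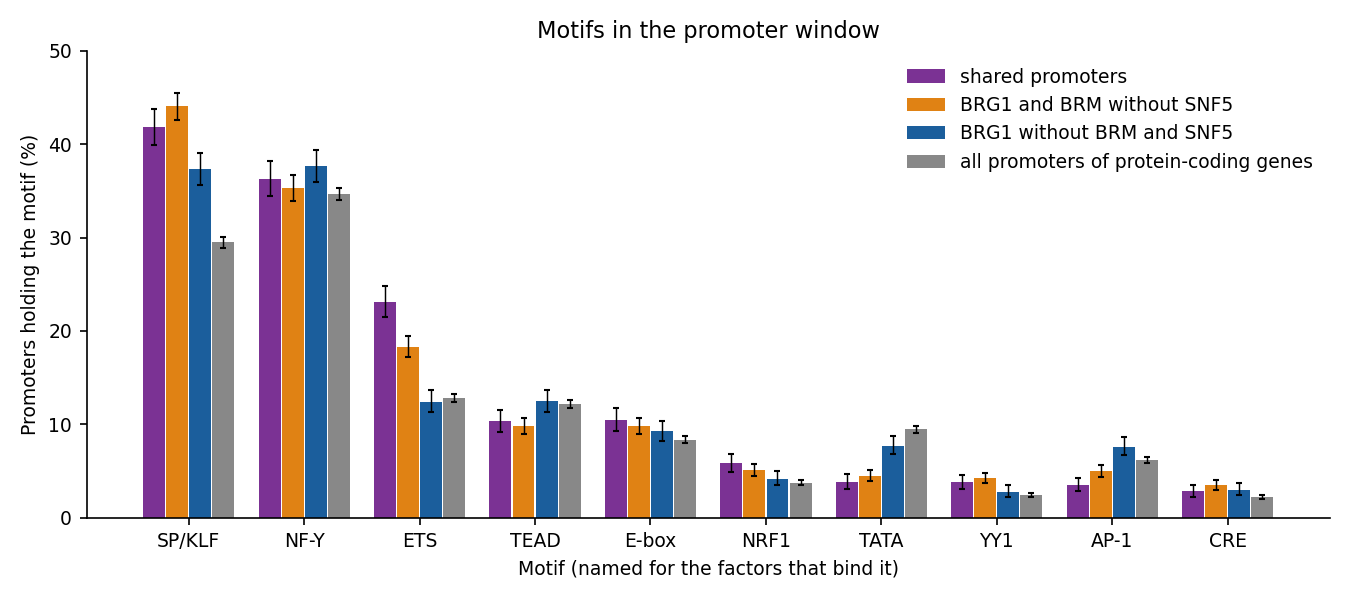
Share of promoter windows (vertical axis, %) that hold each motif on either strand, at shared promoters, promoters of BRG1 and BRM without SNF5, promoters of BRG1 without BRM and SNF5, and all RefSeq promoters of protein-coding genes, with 95% exact binomial intervals. The ETS bar is highest at shared promoters, at 23.2%, and the AP-1 and TATA bars are lowest there.

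SNF5 peaks lay on ETS letters more often than on the same positions taken over all shared promoters. Of 722 ETS matches, 334 (46.3%; 42.6 to 49.98) lay under an SNF5 peak, while SNF5 covered 35.4% of all shared promoters at the same positions. The CCAAT letters showed the reverse, with 296 of 1477 (20.04%; 18.03 to 22.2) under SNF5, against 31.9% of all shared promoters there. The GC box was under SNF5 in 29.1% (26.9 to 31.4), against 33.3%, AP-1 in 21.5% (13.7 to 31.2), against 32.7%. For TATA the share was 24.0%, and its interval (16.2 to 33.4) held the 32.5% of all shared promoters. For NRF1 the values were 38.3% (32.0 to 44.99) against 34.5%, and for YY1 39.6% (30.0 to 49.8) against 40.8%, and these intervals held the share of all shared promoters too. The median ETS match lay 46 bases before the start, the median CCAAT 101 bases and the median GC box 81 bases before it, and the median YY1 match 12 bases after it. With SNF5 peaks narrower than 300 bp only, a choice made after seeing the data, SNF5 lay on 23.5% of ETS matches, against 19.2% of all shared promoters at those positions, and on 9.55% of CCAAT matches, against 17.2%. Both directions stayed and both differences were smaller. Matching on position keeps the shape of the SNF5 profile out of the comparison. It does not keep out differences between promoters, since SNF5 covered 39.4% of the window where ETS letters were present, 29.05% with CCAAT and 32.7% over all. Set against their own windows, 48.1% (44.0 to 52.2) of promoters with ETS letters had SNF5 on any of them, against 39.4%. For CCAAT this was 26.8% (23.9 to 29.7) against 29.05%, and for the GC box 34.1% (31.3 to 37.0) against 31.5%. A promoter with several matches counted when any match lay under SNF5, which raises these shares above those of single positions. Counted by match, CCAAT (20.04%) and the GC box (29.1%) lay below their window values, and ETS (46.3%) above its own. Base composition around each match was not matched, and its part was not tested.

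Chromosomes differed in their share of shared promoters. Chromosomes 20, 5, 10 and 9 had the highest shares, with 28.2% (24.6 to 32.0), 27.8% (24.9 to 30.9), 27.7% (24.5 to 31.0) and 26.1% (23.1 to 29.2). Chromosome 3 had 14.5% (12.2 to 17.1) and chromosome 18 had 9.80% (6.09 to 14.7). Chromosomes 22 and X had none among 170 and 274 BRG1 promoter peaks, where 3 counts of the total would be 1.76% and 1.09% and the exact intervals reach 2.15% and 1.34%. The SNF5 list held no peak on chromosome X and 2 on chromosome 22, and BRG1 peaks were narrow on both, with medians of 472 and 504 bp.

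The low shares came from whole chromosome arms or parts of them. On chromosome 3, 2 of 266 BRG1 promoter peaks before 90 Mb were shared (0.752%), against 120 of 573 beyond it (20.9%). The BRG1 peaks before 90 Mb were also narrower, with a median of 488.5 bp against 973 bp, and 28.6% met BRM against 62.7%. On chromosome 8, 0 of 124 were shared before 45 Mb, against 119 of 495 beyond it (24.0%), with median widths of 502.5 and 911 bp. On chromosome 18, 1 of 87 beyond 30 Mb was shared (1.15%), against 19 of 117 before it (16.2%). Of 146 windows of 20 Mb with at least 30 BRG1 promoter peaks, 12 had no shared promoter, on chromosomes 3, 8, 18, 22 and X. The median window had 19.1% and the highest 44.0%. Few were also shared on chromosome 4 from 0 to 20 Mb (1 of 53). On chromosome 7 it was 2 of 60 from 120 to 140 Mb and 1 of 55 from 140 to 160 Mb. The limits on chromosomes 3, 8 and 18 were drawn after the values were seen. BRG1 promoter peaks were also fewer there. For every 100 protein-coding genes they numbered 53.1 before 90 Mb on chromosome 3, against 101.4 beyond it, and 42.5 before 45 Mb on chromosome 8, against 117.02 beyond it. They numbered 50.9 beyond 30 Mb on chromosome 18, against 118.2 before it, and 37.7 and 32.3 on chromosomes 22 and X. The narrower and fewer BRG1 peaks and the fewer BRM peaks moved with the low shares, and their part in the low shares was not tested.

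**Figure D4:**
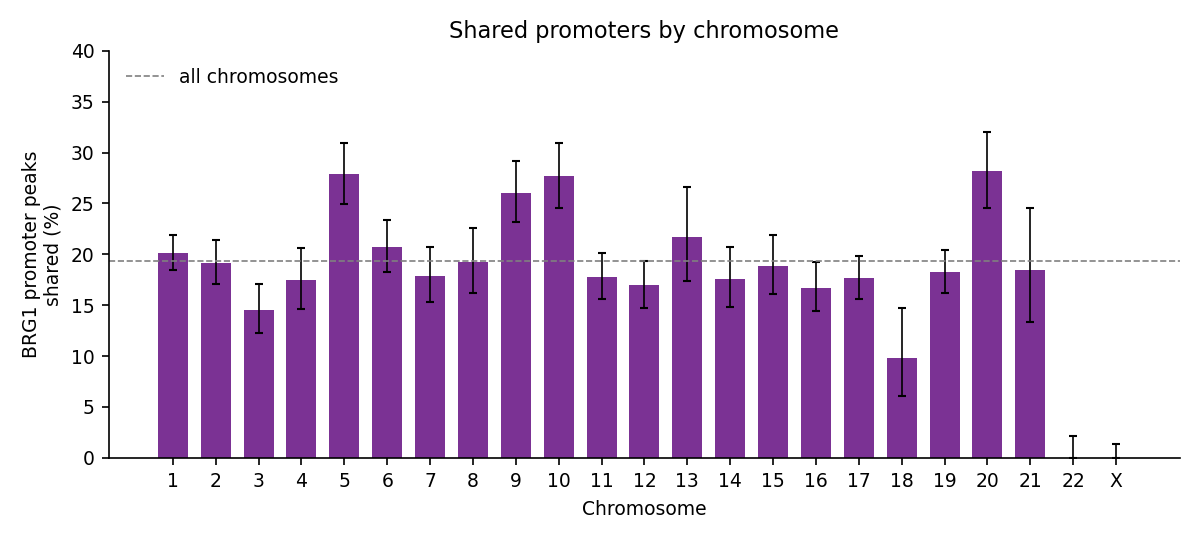
Share of BRG1 promoter peaks under 3000 bp that were shared (vertical axis, %) on each chromosome (horizontal axis), with 95% exact binomial intervals and the share over all chromosomes as a dashed line. Chromosome 20 stands at 28.2%, chromosome 18 at 9.80%, and chromosomes 22 and X at 0.

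Of 20037 protein-coding genes in RefSeq, 3071 were named by a shared promoter (15.3%). Of the 10868 named by a BRG1 promoter peak under 3000 bp, the same 3071 were 28.3%, the share against which the gene lists are read. Since wide peaks are shared more often, each list also has the number it would have if its genes were shared at the rate of their BRG1 width bin. Genes of 1 list lie among each other's neighbours or families and are not replicates, and the lists are described by counts with no test.

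The translation machinery was well represented. Of 60 cytosolic ribosomal protein genes with a BRG1 promoter peak, 35 had a shared promoter (58.3%; 44.9 to 70.9), against 20.5 from the widths of their peaks. Of 37 genes of translation initiation and elongation factors 19 did (51.4%; 34.4 to 68.1), against 11.95, and of 16 aminoacyl-tRNA synthetases 9 (56.2%), against 6.20. Genes of the mitochondrial ribosome stood near the background, with 18 of 60 (30.0%), against 13.8. RPL10A had a BRG1 peak of 2951 bp with 3 SNF5 peaks. RPS23 had 1931 bp of BRG1 and an SNF5 peak of 664 bp, and RPS29 1884 bp with an SNF5 peak of 678 bp. EEF1A1, which encodes the elongation factor that brings tRNA to the ribosome, had 3 SNF5 peaks that summed to 968 bp in a BRG1 peak of 1895 bp (chromosome 6, 73520015 to 73521909). EIF4A2 and EIF4A1, which encode helicases of initiation, also had 3 SNF5 peaks each, and EIF1, which helps select the start codon, had a single one of 879 bp. Of the 35 shared ribosomal protein promoters, 14 had 2 or more SNF5 peaks, a larger part than the 707 of all 3619, beside a median BRG1 width of 1572 bp, against 1524 bp over all shared promoters. This count was made after the values were seen and was not tested. Of the 21 lists, cytosolic ribosomal proteins and translation factors were those whose interval lay above the share given by width.

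Genes that feed or follow translation were mixed. Of 11 snoRNA host genes 7 were shared (63.6%; 30.8 to 89.1), against 3.92 from widths, among them GAS5 with a BRG1 peak of 2390 bp. Of 40 spliceosome genes 19 were (47.5%; 31.5 to 63.9), against 13.1 from widths, and of 27 heat shock and chaperone genes 14 (51.9%; 31.9 to 71.3), against 10.9. HSPB1, which encodes a small heat shock protein, had an SNF5 peak of 840 bp, and HSPA9, the mitochondrial HSP70, had 3 SNF5 peaks. Proteasome genes stood at the background with 8 of 30 (26.7%), against 7.44 from widths. RNA polymerase II and Mediator genes (11 of 31; 19.2 to 54.6%) and respiratory chain genes (17 of 47; 22.7 to 51.5%) had 8.40 and 11.6 from widths, and their intervals held both the width share and the background.

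Genes of AP-1 and immediate early factors that had a BRG1 promoter peak were often shared, though with a wide interval. Of 20 genes of AP-1 and immediate early factors, 12 had a shared promoter under 3000 bp (exact interval 36.1 to 80.9%), against 7.27 from widths, and 4 more of the 30 genes met all of BRG1, BRM and SNF5 in a wider peak. FOS had 1343 bp of BRG1 (chromosome 14, 75278066 to 75279408) with an SNF5 peak of 447 bp. ZFP36, which encodes a protein that destabilises mRNA, had 2 SNF5 peaks in 2815 bp, and KLF4 2 in 2719 bp. Another count took a shared BRG1 peak with its middle within 1000 bp of a RefSeq start. It covered genes of the RefSeq promoter table, whether or not they had a BRG1 peak. By it, 6 of 24 genes of AP-1 and immediate early factors were shared, and 31 of 63 cytosolic ribosomal protein genes. The share over all protein-coding genes by this count is not given, so neither value is read as high or low. ATF4, which encodes a factor of the stress response, had BRG1 only.

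Basal epithelial, p53 target and cell cycle genes stood close to what their widths gave, and luminal genes below it within a wide interval. Of 20 basal epithelial genes 8 were shared, against 7.59 from widths, with 4 more in wider peaks. SFN, the epithelial 14-3-3 protein, had a BRG1 peak of 2833 bp with 2 SNF5 peaks, and PERP, a p53 target and protein of desmosomes, had an SNF5 peak of 715 bp. Of 10 luminal prostate genes 1 was shared, PLPP1 (interval 0.253 to 44.5%), against 3.32 from widths, with 2 more, NDRG1 and FKBP5, in wider peaks. Of 20 p53 target genes 7 were shared (35.0%), against 7.31, among them MDM2 with 2 SNF5 peaks, and of 33 genes of replication licensing and the cell cycle 12 (36.4%), against 10.6, among them MCM7 with 3 SNF5 peaks. Peak lists hold no expression, so these markers are described as bound or not and cannot check the labelled cell type.

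SWI/SNF genes and HOX genes had fewer shared promoters than the background, by less than their intervals. Of 25 SWI/SNF subunit genes 4 were (16.0%; 4.54 to 36.1), against 6.81 from widths, namely ACTB, ARID1B, BICRA and BICRAL. Of 19 HOX genes 3 were (15.8%; 3.38 to 39.6), against 5.90, namely HOXA4, HOXA9 and HOXB7. BRG1 with BRM but no SNF5 was found at 14 of the SWI/SNF and 12 of the HOX genes, and 18 of the 39 HOX genes had no BRG1 promoter peak. Among markers of other cell types, 1 of 4 blood genes with a BRG1 promoter peak (CSF1R) and 1 of 4 stromal genes (COL1A1) were shared, and 0 of 9 neuronal and 0 of 2 hepatocyte genes.

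**Figure D5:**
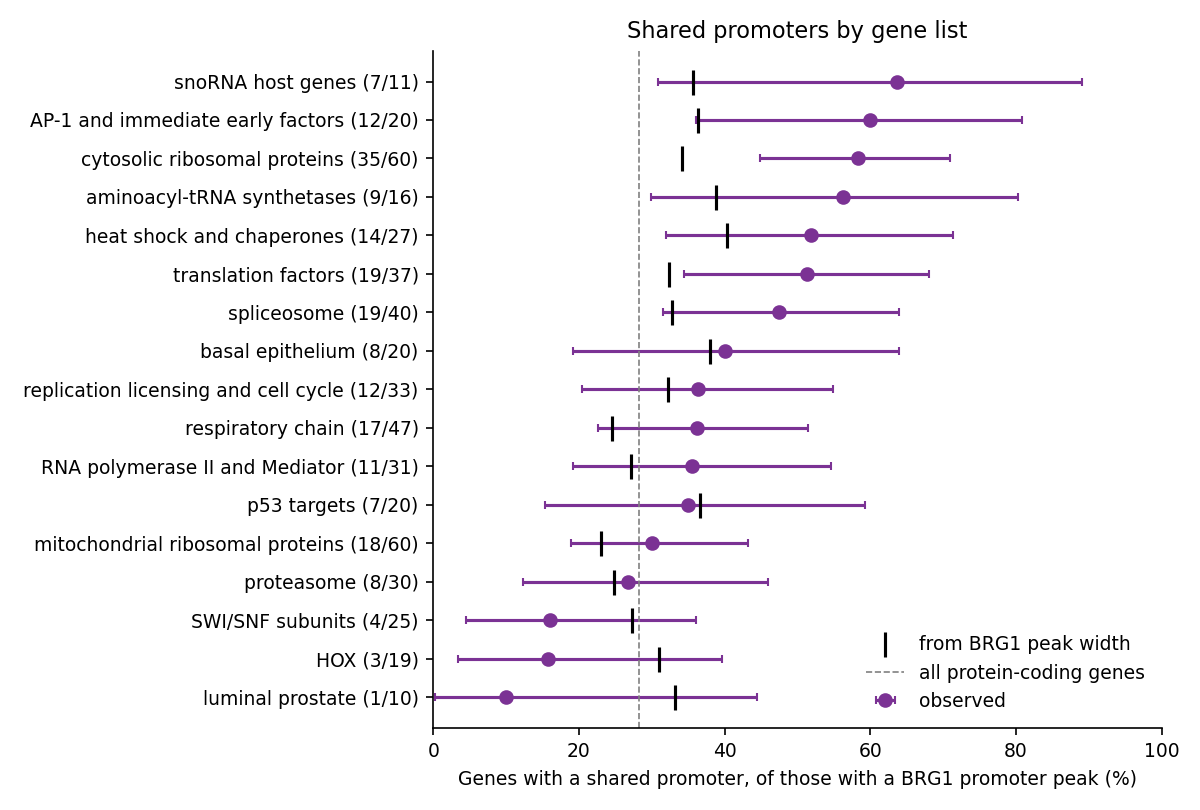
Share of the genes with a BRG1 promoter peak under 3000 bp that had a shared promoter (horizontal axis, %), for gene lists with 10 or more such genes (vertical axis, with counts). Points are observed shares with 95% exact binomial intervals, black ticks the share given by BRG1 peak widths, and the dashed line the 28.3% of all protein-coding genes. Cytosolic ribosomal protein genes have an interval wholly above their width tick, as do translation factors.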

How the data were processed

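The authors mapped proteins on chromatin of RWPE1 cells, fixed in 0.3% formaldehyde per the labels' protocols, by immunoprecipitation and sequencing. The submitters' processing notes name Bowtie2, SAMtools, MACS2, deepTools 2.5.2 and hg38, with no role for each. How replicates were pooled, and which threshold, input and filter were taken, is not given in the sources used here. Each deposited list holds positions, widths, the place and the nearest start, with no score, enrichment or count of reads, so depth is unknown.

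The members, gene lists and motifs were chosen with earlier results of these data known. Overlaps took 1 bp. Gene names were matched to RefSeq by symbol or synonym, which succeeded for 81.4% of BRG1 peaks. Start sites were those of the named gene in the RefSeq promoter table (GRCh38.p14) nearest to the middle of the peak, within 1000 bp. Shares have exact Clopper-Pearson intervals and medians order-statistic intervals at 95% confidence, with peaks as trials. With 1 list for each subunit no replicate test was possible, and differences between classes are read from intervals that cover counting error only. The 21 gene lists held 760 entries. Named were the 10 members with the most SNF5 peaks, the 10 most covered by SNF5, the 5 narrowest, 5 on each side of 3000 bp, up to 4 of each gene list with the most SNF5, up to 2 unshared genes of a list, and 1 for each motif. YAP1, and any other gene outside this rule, was named after its values were seen. The comparison of motif matches with position, the counts given by width, and the parts and windows of chromosomes were added after seeing the data. The routines were tested on simulated data. Alternatives were other widths, distances, overlaps, gene classes and sequence windows. Software was Python 3.11.15 with scipy 1.17.1, numpy 2.4.6, pandas 2.3.3 and, for plots, matplotlib 3.10.9.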

Additional observations from a re-analysis of the deposited data

How the results depend on the processing

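No paired analysis was possible because there is 1 list for each subunit, with no columns for replicates. No value changed its direction. Without the upper limit on width the share of BRG1 promoter peaks was 20.7%, the median BRG1 width 1609.5 bp, the median BRM width 870 bp and the share with 2 or more SNF5 peaks 22.4%. Under 2000 bp these were 15.8%, 1321.5 bp, 787.5 bp and 14.2%. The share was 21.9% within 500 bp of the start and 20.6% for protein-coding genes only. From 100 bases before the start, GC content was 70.0% and CpG observed over expected 0.926. Divergent neighbours within 500 bp were found at 24.3%. The number of shared promoters ran from 2708 to 3972 over the alternatives. With SNF5 peaks narrower than 300 bp only, an alternative chosen after seeing the data, the excess of ETS matches under SNF5 was 4.35 percentage points, against 10.9 with all peaks, and the deficit of CCAAT was -7.69 against -11.9. The lists hold no enrichment, so how strongly each site was bound could not be weighed.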
